A study of Rattus norvegicus with 8 samples.

Results

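The 10 genes described here encode proteins that fold thyroglobulin and other secreted proteins in the endoplasmic reticulum (ER) of the rat thyroid, together with the transcription factor Xbp1. They were taken by symbol (Hspa5, Hsp90b1, Pdia3, Pdia4, Pdia6, Calr, Canx, Sdf2l1, Dnajb9 and Xbp1) from a table of 30560 gene identifiers and 54991 transcripts. For each gene the transcript with the highest summed raw count was used. The samples were thyroids of male Wistar rats that received 0 Gy (sham) or 4 Gy of X-rays to the neck at 1 week or at 4 months of age and were dissected about 8 weeks later. The groups are called 1w0Gy, 1w4Gy, 4m0Gy and 4m4Gy, with 2 samples each and 8 in all. According to the methods, samples came from different rats. The 2 samples of a group were those with the higher RNA integrity among the animals of that group, so they were not a random draw. Rats irradiated at 4 months were also older when the tissue was taken, so age at exposure and age at sampling cannot be told apart. The study's question was which thyroid genes stay altered after neonatal irradiation. Here the same design was used to ask how the ER folding genes differed with irradiation and with age.

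Thyroglobulin, the precursor of thyroid hormone, is a very large glycoprotein with many disulfide bonds, and it must be folded and dimerized in the ER before it can be secreted into the follicle. Hspa5 (BiP) and Hsp90b1 (GRP94) are the chaperones of the ER lumen that bind its unfolded segments. Calr and Canx are lectins that hold its sugar chains, and Pdia3, Pdia4 and Pdia6 form and rearrange its disulfide bonds. When unfolded protein accumulates, the unfolded protein response, which runs through the sensors Ire1, Perk and Atf6, raises transcription of these genes, and Xbp1 is the transcription factor made through Ire1.

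Raw counts per library, at 1 transcript per gene, summed to between 14835406 and 18138106, and 19021 to 19449 genes had at least 1 count. Thyroglobulin (Tg) alone took 18.5% to 21.3% of the counts, and the summed level of 8 thyrocyte markers was 189000 to 224000 CPM (counts scaled to a common library total). Markers of the neighbouring parathyroid lay between 1940 and 5480 CPM in 7 libraries and at 343 CPM in 4m4Gy sample 2. Plasma cells, which also express the ER folding genes at a high level, had low marker levels, with 6 markers summing to 23.2 to 30.9 CPM. The 6 B and T lymphocyte markers summed to 1.7 to 3.27 CPM. None of these markers was at 0 in every sample. In bulk tissue, fewer cells of a type and less RNA per cell cannot be told apart.

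The 10 genes together took 1.08% to 1.97% of the counts of a library. Of these, 4m0Gy sample 2 had the lowest share and 1w4Gy sample 2 the highest. All 10 passed the filter on low counts in every comparison. Hspa5, Canx, Sdf2l1 and Dnajb9 had 1 transcript in the table. Pdia6 had 5, whose lowest total was 99.4% of the highest, so the counts of genes with several transcripts may rest on reads that these transcripts share.

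The promoters are shown because ER folding genes are known to carry the ER stress response element (ERSE), a pair of boxes read by NF-Y and by Atf6 or Xbp1: CCAAT, then 9 bases of any sequence, then CCACG. RefSeq promoters of the GRCr8 assembly (250 bases before to 50 after the annotated start) were at hand for 8 of the 10 genes and for 33469 starts in all. Pdia3 and Pdia6 had no entry. On either strand, the exact element was in 22 promoters, which is 0.0657% of all, and in 5 of the 8 genes: Hspa5, Hsp90b1, Calr, Canx and Xbp1. With 1 of the 10 fixed bases allowed to differ, 471 promoters (1.41%) held it, and Pdia4 joined the list. In Hspa5 the element lay 25 to 43 bases upstream of the start. Hsp90b1 held it at 158 to 176 bases and, on the opposite strand, at 54 to 72 bases. The 250 bases upstream of both starts, in the direction of the gene with the element in capitals, read as follows, at chr3:38452766-38453015 on the plus strand and chr7:23012294-23012543 on the minus strand.
Hspa5: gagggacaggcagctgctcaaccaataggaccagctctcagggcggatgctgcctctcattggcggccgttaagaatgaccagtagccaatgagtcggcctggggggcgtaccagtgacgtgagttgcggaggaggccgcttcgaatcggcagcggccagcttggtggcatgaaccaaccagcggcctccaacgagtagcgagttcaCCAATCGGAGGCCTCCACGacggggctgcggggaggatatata
Hsp90b1: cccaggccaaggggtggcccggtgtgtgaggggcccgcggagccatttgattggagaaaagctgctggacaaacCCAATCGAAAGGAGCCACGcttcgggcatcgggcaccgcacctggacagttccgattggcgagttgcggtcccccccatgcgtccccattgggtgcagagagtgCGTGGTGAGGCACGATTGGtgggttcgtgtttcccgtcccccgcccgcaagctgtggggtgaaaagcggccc

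Elsewhere the element lay 214 to 232 bases upstream of the start in Calr (chromosome 19, plus strand, on the opposite strand), 212 to 230 bases in Canx (chromosome 10, minus strand) and 47 to 65 bases in Xbp1 (chromosome 14, plus strand). The match in Pdia4 (chromosome 4, minus strand) with 1 differing base lay 83 to 101 bases upstream, on the opposite strand. The windows below, again in the direction of the gene with the element in capitals, cover chr19:40213117-40213173, chr10:35158049-35158107, chr14:84604538-84604596 and chr4:78153254-78153312.
Calr: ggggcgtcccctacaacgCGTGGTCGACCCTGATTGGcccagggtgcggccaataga
Canx: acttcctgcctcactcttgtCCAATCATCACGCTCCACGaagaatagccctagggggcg
Xbp1: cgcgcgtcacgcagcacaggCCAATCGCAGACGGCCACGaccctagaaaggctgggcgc
Pdia4: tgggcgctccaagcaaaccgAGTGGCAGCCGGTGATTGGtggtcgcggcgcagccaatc

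Sdf2l1 and Dnajb9 held no ERSE within these letters, even with 1 base allowed to differ. Their upstream sequences, at chr11:97376628-97376877 on the plus strand and chr6:67002052-67002301 on the minus strand, are given for comparison, because both genes belonged to the 5 with the widest spread between samples described below.
Sdf2l1: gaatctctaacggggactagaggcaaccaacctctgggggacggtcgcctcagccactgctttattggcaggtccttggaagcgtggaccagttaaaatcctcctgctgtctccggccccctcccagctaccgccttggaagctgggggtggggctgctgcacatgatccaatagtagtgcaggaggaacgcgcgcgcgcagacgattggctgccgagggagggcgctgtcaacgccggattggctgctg
Dnajb9: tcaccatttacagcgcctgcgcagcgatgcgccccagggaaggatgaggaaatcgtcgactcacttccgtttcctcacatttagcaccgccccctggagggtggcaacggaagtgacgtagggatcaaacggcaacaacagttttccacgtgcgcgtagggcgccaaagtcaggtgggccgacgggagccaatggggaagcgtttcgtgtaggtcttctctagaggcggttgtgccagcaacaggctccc

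No other unfolded protein response motif searched on both strands was found in the 8 promoters. The core of the UPR element, TGACGTGG, was in 0.595% of all promoters, ERSE-II (ATTGG, any base, CCACG) in 0.0508% and the Atf4-type element, TGATGNAAT, in 1.09%. ERSE-II shares its CCACG with ERSE. Outside the 10 genes, 16 symbols had an exact ERSE, among them the ER genes Creld2, Derl3, Dnajc3 and Ero1b. A match says only that the letters are there, and a missing match says only that they are not in this window.

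Levels can be compared between genes only per length, so the deposited TPM values, which are scaled for transcript length and depth, were used for that. Tg had a median of 22410 TPM over the 8 samples. Calr followed with 1469 TPM (range 1262 to 1691), then Hspa5 with 896 TPM (603 to 1822) and Hsp90b1 with 715 TPM (580 to 1386). Pdia3 had a median of 602 TPM, Canx 389 TPM, Pdia6 367 TPM, Pdia4 219 TPM and Xbp1 202 TPM. The co-chaperones were lowest, with 149 TPM for Sdf2l1 and 33.8 TPM for Dnajb9. Among the 10 genes the ranges of neighbours in this order overlapped, except that every sample of Pdia3 lay above every sample of Canx, and every sample of Sdf2l1 above every sample of Dnajb9. The widely varying genes changed places within samples: Hspa5 stood above Calr in 1w4Gy sample 2 (1822 against 1691 TPM) and far below it in 4m0Gy sample 2 (608 against 1262 TPM).

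Between samples, each gene was followed in CPM scaled by the trimmed mean of M values (TMM). Hspa5, the central Hsp70 chaperone of the ER, was at 2653 and 3928 CPM in the 1w0Gy samples 1 and 2, at 3220 and 4947 in 1w4Gy, against 2306 and 1653 in 4m0Gy, followed by 1709 and 2069 in 4m4Gy. All 4 samples of the 1-week groups were above all 4 of the 4-month groups. Hsp90b1, the ER form of Hsp90, had 2459 and 3172 CPM in 1w0Gy, 3128 and 4610 in 1w4Gy, against 2391 and 1929 in 4m0Gy, followed by 2076 and 2235 in 4m4Gy. The 2 ages did not overlap here either, although 1w0Gy sample 1 and 4m0Gy sample 1 were close to each other.

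Pdia4, a disulfide isomerase that works in a complex with BiP, had 568.5 and 846 CPM in 1w0Gy, 689 and 1306 in 1w4Gy, against 487 and 362 in 4m0Gy, followed by 374 and 448 in 4m4Gy. One sample, 1w4Gy sample 2, lay far above the rest. Sdf2l1, a small partner of the BiP and DNAJB11 complex, was at 182 and 265 CPM in 1w0Gy, 191 and 284 in 1w4Gy, against 158 and 116 in 4m0Gy, followed by 120.3 and 135 in 4m4Gy. Dnajb9 (ERdj4), a J-domain co-chaperone that also holds Ire1 in check, was at 149.6 and 178 CPM in 1w0Gy, 107 and 144 in 1w4Gy, against 102 and 91.5 in 4m0Gy, followed by 96.9 and 106 in 4m4Gy. Dnajb9 was thus highest in the sham-irradiated 1-week rats, whereas Hspa5, Hsp90b1, Pdia4 and Sdf2l1 were highest in the irradiated 1-week sample 2.

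The other 5 genes varied less. Pdia3, which serves the lectins, ranged from 1751 to 2239 CPM over the 8 samples, and Pdia6, which also acts on BiP clients, from 666 to 951 CPM. Calr ranged from 2397 to 3209 CPM and its membrane-bound relative Canx from 1345 to 1650 CPM. Xbp1 had 399.6 and 432 CPM in 1w0Gy, 383.8 and 408 in 1w4Gy, against 356 and 346 in 4m0Gy, followed by 359 and 383 in 4m4Gy. The count of Xbp1 covers spliced and unspliced mRNA alike and does not measure Ire1 activity.

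**Figure D1:**
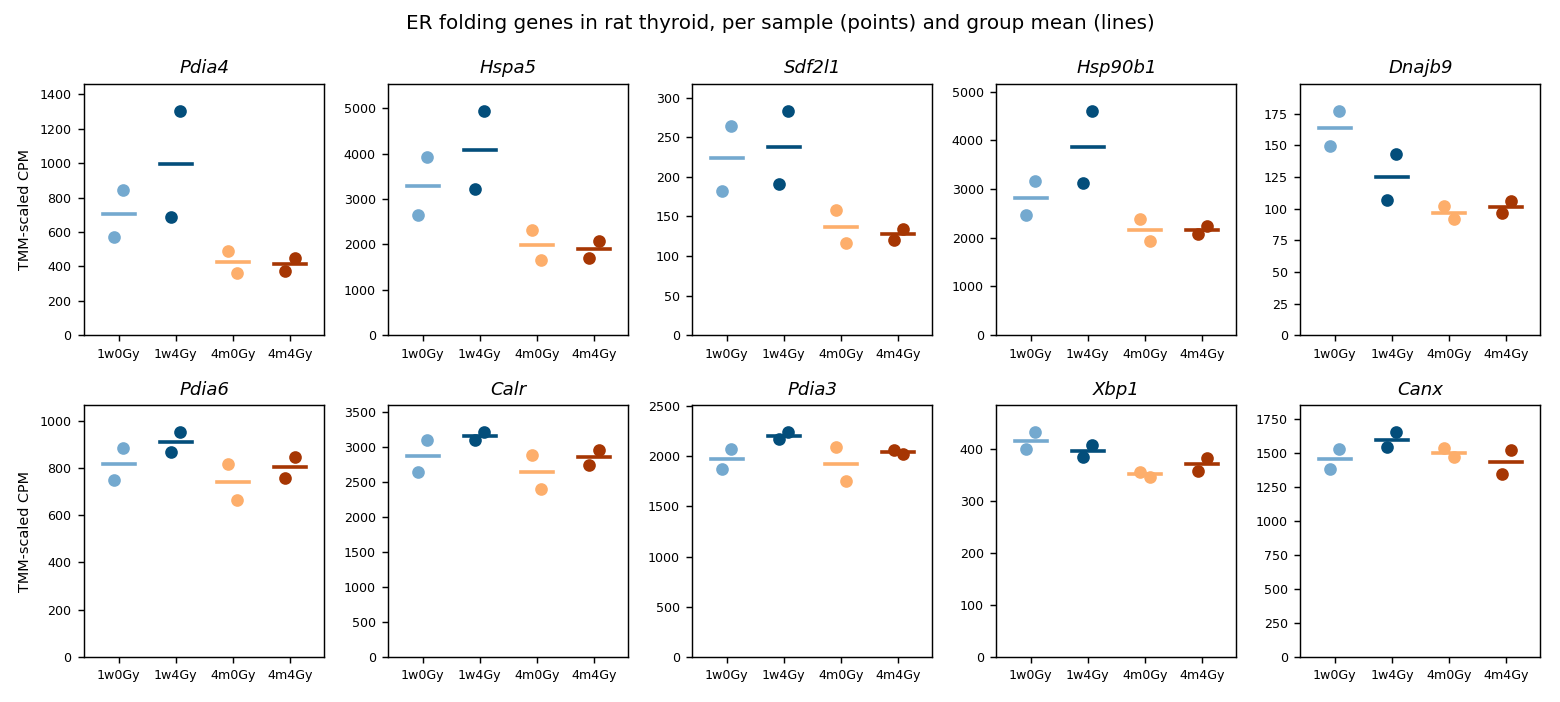
TMM-scaled CPM of the 10 ER folding genes (y axis, from 0) in the 4 groups (x axis), with 1 point per sample and a line at the group mean, ordered by the ratio of highest to lowest sample. The first 5 genes and Xbp1 are higher in every 1-week sample than in every 4-month sample, narrowly in Dnajb9 and Xbp1, and Hspa5 reaches from 1653 to 4947 CPM, whereas Canx stays between 1345 and 1650 CPM.

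The ratio of the highest to the lowest sample was 3.61 for Pdia4, 2.99 for Hspa5, 2.44 for Sdf2l1, 2.39 for Hsp90b1 and 1.94 for Dnajb9. Among the 1570 genes that averaged 100 CPM or more, the median of this ratio was 1.23, with quartiles of 1.16 and 1.35. The ratio of Pdia4 was larger than that of 98.9% of these genes, that of Hspa5 than 98.6%, and that of Dnajb9 than 95%. The ratio was smaller for Pdia6 (1.43), Calr (1.34), Pdia3 (1.28), Xbp1 (1.25) and Canx (1.23). Pdia6 was still above 83.6% of the genes, Calr above 74%, Pdia3 above 61.7%, Xbp1 above 54.6% and Canx above 47.5%. The exact ERSE was in promoters of both sets: Hspa5 and Hsp90b1 varied widely, and Calr, Canx and Xbp1 varied less. Pdia4, with the widest spread, held it only with 1 base allowed to differ, and the promoters of Pdia3 and Pdia6 were not at hand. Whether the element is related to the spread was not tested.

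Part of this spread was between the 2 rats of a group. In 1w0Gy, all 10 genes were higher in sample 2 than in sample 1, by a median of 0.25 on the log2 scale, and in 1w4Gy all 10 were again higher in sample 2, by a median of 0.28 and by up to 0.92 for Pdia4. In 4m0Gy all 10 were lower in sample 2 (median log2 difference -0.28), and in 4m4Gy 9 of 10 were higher in sample 2 (median 0.15), the exception being Pdia3. Over all genes tested, 48.3% to 52.2% were higher in sample 2 of a group. Within a group, rats of the same age and dose thus differed in nearly all 10 genes in the same direction. The replicate numbers are only names, so the sign of these differences carries no information.

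**Figure D2:**
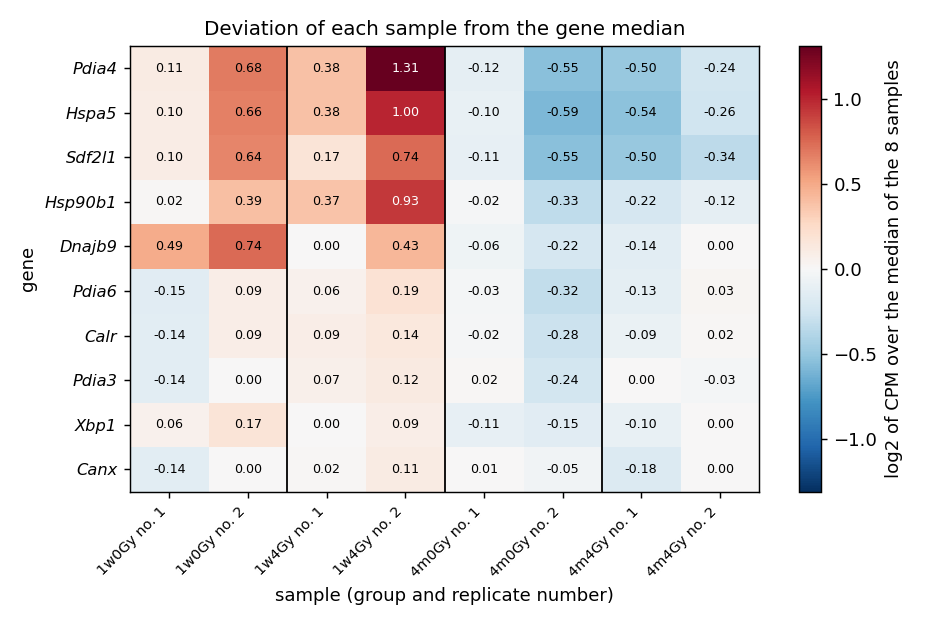
Log2 of each sample's CPM over the gene's median of the 8 samples (colour and printed value) for the 10 genes (rows) and 8 samples (columns, separated by group). The column of 1w4Gy sample 2 is above the median for all 10 genes, by up to 1.31 for Pdia4, and that of 4m0Gy sample 2 is below it for all 10, by as much as -0.59 for Hspa5.

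Irradiation at 1 week was the comparison the study was built for, and none of the 10 genes passed the test there. Log2 fold changes of 1w4Gy against 1w0Gy were 0.50 for Pdia4 (SE 0.38), 0.46 for Hsp90b1 (SE 0.22), 0.31 for Hspa5 (SE 0.27) and -0.39 for Dnajb9 (SE 0.16), and the median of the 10 was 0.14 with 8 above 0 and 2 below. Adjusted p ranged from 0.875 to 0.983 (edgeR's quasi-likelihood test on 2 against 2 samples, Benjamini-Hochberg adjustment over 15359 genes, threshold 0.05). The background of this test was low, with 1 of 15359 genes called (0.00651%). Before adjustment, edgeR's p was under 0.05 for 1 of the 10, Dnajb9, and for 5.68% of all genes. DESeq2 called 0 of the 10 and 0.196% of all genes. Both irradiated samples were above both sham samples for Pdia3 and Canx, where 17.7% of all genes did the same, and below them for Dnajb9, where 17.8% did. The direction for Hspa5, Pdia4 and Sdf2l1 rested on single samples: with 1w4Gy sample 2 left out, the estimates were -0.03 for Hspa5, -0.04 for Pdia4 and -0.22 for Sdf2l1. Sdf2l1 was also at -0.15 without 1w0Gy sample 1.

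Irradiation at 4 months left the 10 genes close to the sham level. Their log2 fold changes ran from -0.11 to 0.11 with a median of 0.03, and 5 were above 0 and 5 below. None passed the test (adjusted p 0.831 to 0.993, edgeR as above), where 3 of 15253 genes did (0.0197%). None had an unadjusted p under 0.05 either, against 8.39% of all genes, and DESeq2 called 0 of the 10 and 0.0905% of all genes. Xbp1 was the only one whose 4m4Gy samples were both above both 4m0Gy samples, a pattern seen in 21% of all genes, and none of the 10 was lower in both, as 18.7% of all genes were. The largest SE in this comparison was 0.19, for Hspa5, against 0.38, for Pdia4, at 1 week.

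Whether the response differed between the ages was tested as the response at 1 week minus that at 4 months, in one edgeR fit over 8 samples. The difference was 0.54 (SE 0.53) for Pdia4, 0.46 (SE 0.29) for Hsp90b1, 0.38 (SE 0.41) for Hspa5 and -0.45 (SE 0.20) for Dnajb9. None of the 10 passed (adjusted p 0.563 to 0.982), and neither did any of 15684 genes (0%), although 1431 had an unadjusted p under 0.05. DESeq2 called 25 genes here (0.203%), none of them among the 10. With both ages in one model and age as a term, the estimate for irradiation ran from -0.16 for Dnajb9 to 0.23 for Pdia4 and Hsp90b1, all with adjusted p = 0.999, while 2 of 15684 genes were called (0.0128%). None of the 10 had an unadjusted p under 0.05 in either of these edgeR tests, against 9.12% of all genes in the first and 3.89% in the second. DESeq2 called 0 of the 10 in both, against 0.203% and 0.0714% of all genes.

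The groups of the 2 ages were compared next, first in the sham rats and then in the irradiated rats, with the same samples that entered the irradiation comparisons. In sham-irradiated rats Dnajb9 fell with age: its mean was 164 ± 19.8 CPM (SD, n = 2) for 1w0Gy against 96.9 ± 7.62 CPM (SD, n = 2) for 4m0Gy, a log2 fold change of -0.76 (SE 0.10, edgeR's adjusted p = 0.0304). It was the only one of the 10 that passed, where 163 of 15364 genes did (1.06%). Hspa5 (-0.73, SE 0.26), Pdia4 (-0.74, SE 0.26) and Sdf2l1 (-0.70, SE 0.25) had estimates of the same size with a larger error, and their adjusted p was 0.267 to 0.279. For Hsp90b1 the estimate was -0.38 (SE 0.15), and for Xbp1 it was -0.24 (SE 0.07, adjusted p = 0.157). In these 6 genes both 4m0Gy samples lay below both 1w0Gy samples, as in 24.8% of all genes, and in none of the 10 did they lie above, as in 25.4% of all genes. The same 6 had an unadjusted p under 0.05, against 17.8% of all genes. Pdia3, Pdia6, Calr and Canx had estimates between -0.14 and 0.05. The call for Dnajb9 was lost when 1w0Gy sample 1 (adjusted p = 0.057) or 1w0Gy sample 2 (adjusted p = 0.097) was left out, when all 8 samples were fitted together (adjusted p = 0.0558), when counts were summed over transcripts (adjusted p = 0.0624) and with a replicate block (adjusted p = 0.0957). A fold limit (over 1.5 or under 0.5) also removed it. DESeq2 called Dnajb9 alone of the 10 here, and 342 of all genes (2.47%).

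The irradiated rats gave a second comparison of the 2 ages in samples that the sham rats did not share. Here the largest estimates were -1.28 for Pdia4 (SE 0.36), -1.11 for Hspa5 (SE 0.22), -0.89 for Sdf2l1 (SE 0.20) and -0.84 for Hsp90b1 (SE 0.19). Hspa5 averaged 4084 ± 1221 CPM (SD, n = 2) in 1w4Gy and 1889 ± 255 CPM (SD, n = 2) in 4m4Gy. None of the 10 passed (adjusted p 0.0936 to 0.699 with edgeR), where 136 of 15275 genes did (0.89%). Without adjustment p was under 0.05 for 4 of the 10, these same 4 genes, and for 14.8% of all genes. DESeq2 called 3 of them, Hspa5 (adjusted p = 0.0461), Hsp90b1 and Sdf2l1, and 302 of all genes (2.19%). In all 10 genes both 4m4Gy samples were below both 1w4Gy samples, as in 23.7% of all genes, and none was above, as 24.1% of all genes were. The estimate for Dnajb9 was -0.30 (SE 0.15), nearer to 0 than in the sham rats. The difference between the sham and the irradiated age estimates is the interaction tested above, which did not pass for this gene (adjusted p = 0.563).

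Leaving out either 1w4Gy sample, so that 1 sample stood for that group and was taken to vary like the 4m4Gy pair, brought Hspa5, Hsp90b1, Pdia4 and Sdf2l1 under the threshold. With sample 1 left out, 5 of the 10 were called, but so were 1285 of all genes (8.21%), and with sample 2 left out 4 of the 10 and 510 of all genes (3.25%) were. Leaving out either 4m4Gy sample gave 0 of the 10. The estimate for Hspa5 was -1.39 without sample 1 and -0.76 without sample 2, and that for Pdia4 was -1.67 and -0.74.

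**Figure D3:**
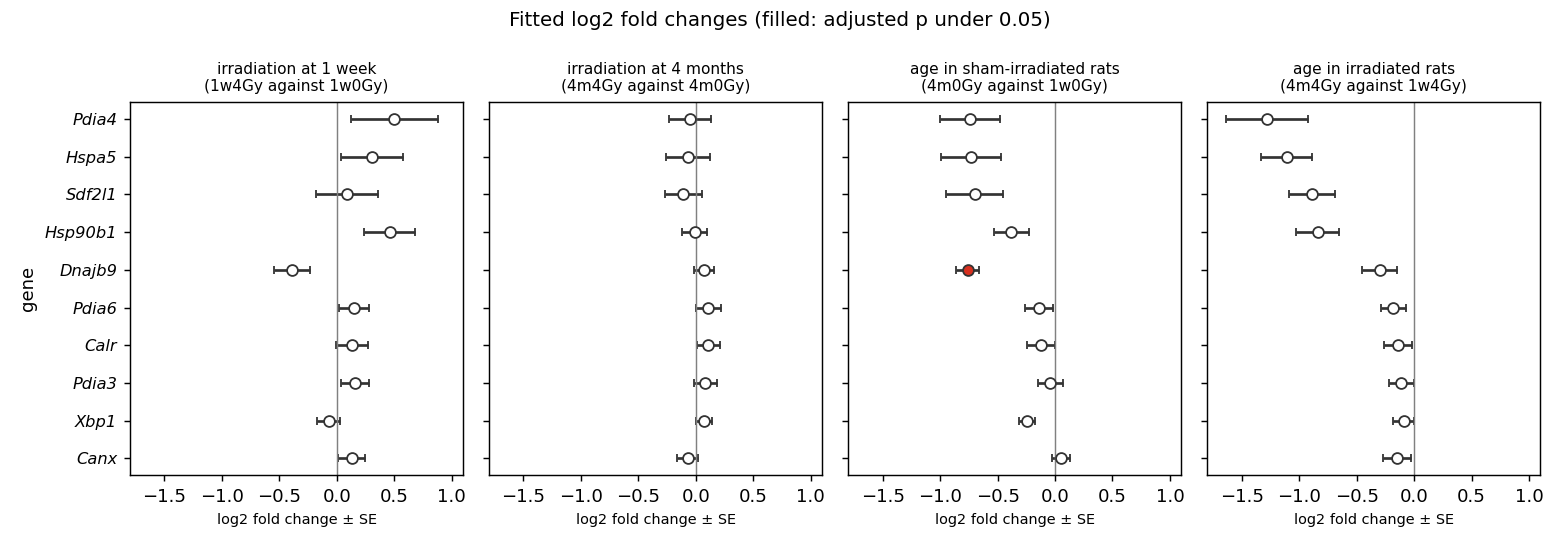
Fitted log2 fold change (x axis) with its SE (bars) for the 10 genes (y axis) in the 4 comparisons of 2 groups. Values lie on both sides of 0 for irradiation at 1 week (-0.39 to 0.50), near 0 for irradiation at 4 months, and mostly below 0 for age, where Dnajb9 in the sham rats (filled, -0.76) is the only gene past the threshold.

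Other tissue components differed with age in the same samples. The 5 fibroblast markers summed to 2090 to 2870 CPM in the 1-week groups and to 761 to 1020 CPM in the 4-month groups. The C cell markers (7 genes) summed to 3300 to 5730 CPM at 1 week and to 6210 to 8360 CPM at 4 months, and the red cell marker found was 457 to 567 CPM against 291 to 387 CPM. Their part in the age differences of the ER folding genes was not tested. The summed thyrocyte markers, most of which was Tg, did not divide by age. Of the single markers, Tshr had 287, 318, 261 and 294 CPM in the 1-week samples. In the 4-month samples it had 245, 234, 227 and 247 CPM, while most of the others overlapped between the ages.

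A ratio within a sample does not depend on how samples are scaled to each other, but it does depend on Tg. Per 1000 counts of Tg, the 10 genes together had 71.3 and 80.9 counts in 1w0Gy, 80.1 and 92.9 in 1w4Gy, against 61.4 and 50.7 in 4m0Gy, followed by 63.8 and 58.8 in 4m4Gy. All 4 samples of the 1-week groups were above all 4 of the 4-month groups, and 1w4Gy sample 1 lay within the 1w0Gy pair and 4m4Gy sample 2 within the 4m0Gy pair. With counts summed over transcripts the doses did not overlap at 1 week, since both 1w4Gy samples (51.2 and 57.6) lay above the higher 1w0Gy sample (50.4). Hspa5 alone stood at 14.5 and 19.4 counts per 1000 Tg counts in 1w0Gy, 16.8 and 23.3 in 1w4Gy, against 10.8 and 7.77 in 4m0Gy, followed by 9.37 and 9.56 in 4m4Gy. For Calr the ratio ran from 11.3 to 16.1. Tg itself ranged from 182400 to 216400 CPM, and its log2 fold change was between -0.10 and 0.14 in the 4 comparisons of 2 groups, with no call. In the sham rats both 4m0Gy samples (213700 and 212600 CPM) had more Tg than both 1w0Gy samples (183200 and 202800 CPM), as in 25.4% of all genes. This widens the separation of the ratio by age in the sham rats.

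**Figure D4:**
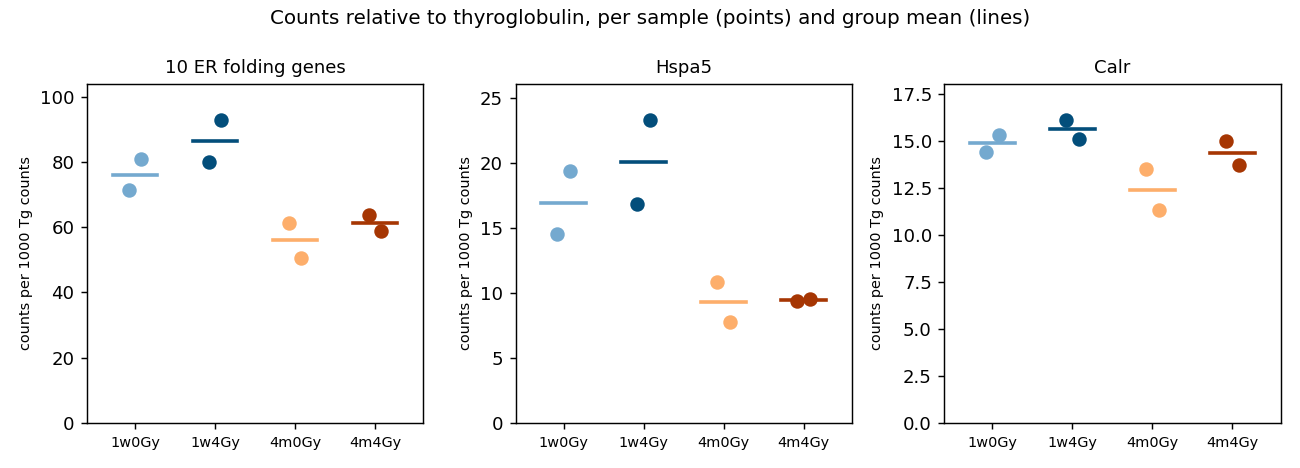
Counts per 1000 Tg counts (y axes, from 0) in each sample (points) with the group mean (lines) for the 10 genes summed, Hspa5 and Calr. The sum lies between 71.3 and 92.9 in the 1-week groups and between 50.7 and 63.8 in the 4-month groups, and Calr ranges from 11.3 to 16.1.

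Around the 10 genes, 9 lists of other genes of the ER and of protein folding were looked up in the same fits. Of 117 list genes tested, edgeR called 0 for irradiation at either age, with an unadjusted p under 0.05 for 9 at 1 week and 8 at 4 months, and DESeq2 called 0 at both. For age edgeR called 2 in the sham and 2 in the irradiated rats, where it called 1.06% and 0.89% of all genes. DESeq2 called 8 and 10 of them, against 2.47% and 2.19% of all genes. An unadjusted p under 0.05 was found for 35% and 26.5% of them, against 17.8% and 14.8% of all genes. Serpinh1 (Hsp47, the collagen chaperone) fell from 465 and 546 CPM in 1w0Gy to 272 and 266 CPM in 4m0Gy (log2 fold change -0.91, SE 0.09, edgeR's adjusted p = 0.0211). It fell again from 497 and 560 CPM in 1w4Gy to 285 and 320 CPM in 4m4Gy (-0.80, SE 0.11, adjusted p = 0.0192). Serpinh1 and the fibroblast markers given above were both lower in the older groups. Within 3 of the 4 groups the sample with more Serpinh1 had the lower fibroblast sum. The order of 2 samples in a group cannot speak to a difference between ages, and the part of these cells was not tested. The call was lost in the irradiated rats with summed counts (adjusted p = 0.0532) and without either 4m4Gy sample (adjusted p = 0.199 and 0.124), and in the sham rats with a replicate block (adjusted p = 0.0586). edgeR called no other of the 12 tested ER chaperones and co-chaperones, DESeq2 also called Dnajb11 in both comparisons and Dnajc3 in the irradiated rats, and the median of this list was -0.28 in the sham and -0.18 in the irradiated rats.

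Edem1, which takes misfolded glycoproteins to degradation, fell in the sham rats from 155 and 194 CPM to 105 and 97.1 CPM (log2 fold change -0.79, SE 0.11, adjusted p = 0.0405), edgeR's only call among 11 tested genes of the glycan and lectin cycle. This call was lost in the fit over 8 samples, with summed counts, with a replicate block and without 1w0Gy sample 2 or 4m0Gy sample 1 (adjusted p 0.0549 to 0.126). In the irradiated rats its estimate was -0.82 with adjusted p = 0.178, where DESeq2 called it. Qsox1, a sulfhydryl oxidase of the secretory pathway, rose with age in the irradiated rats from 82.7 and 102 CPM to 146 and 156 CPM (0.71, SE 0.11, adjusted p = 0.0378), edgeR's only call among 17 tested genes of the disulfide isomerase family and oxidases. This call was lost in the fit over 8 samples, with summed counts, without the robust prior and without either 4m4Gy sample (adjusted p 0.0737 to 0.225). Its estimate in the sham rats was 0.81 with adjusted p = 0.0868, where DESeq2 called it.

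edgeR made no call for age among 14 genes of ER-associated degradation (median log2 fold change -0.16 in the sham and -0.15 in the irradiated rats), 14 of the translocon and signal peptidase (-0.11 and -0.09), 15 sensors and transcription factors of the unfolded protein response (near 0 and -0.12), 8 prolyl isomerases (0.02 and 0.01) and 10 genes of thyroid hormone synthesis (0.14 and 0.05). DESeq2 called 3 of these genes in each comparison. For 16 cytosolic and mitochondrial chaperones, which do not act in the ER, the medians were -0.19 and -0.20. edgeR called none of them, and DESeq2 called Dnaja1 in both comparisons. These medians may be read beside those of the 10 ER folding genes, which were -0.31 and -0.24, and that of all genes, which lay within 0.001 of 0 in both age comparisons.

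The genes with the smallest p for irradiation in each list did not pass the test. At 1 week, for 8 of the 9 lists, they were Txndc11 (-0.28), Hspa13 (-0.22), Uggt1 (0.48), Ppic (0.39), Vcp (0.20), Creb3l1 (-0.44), Tram1 (0.15) and Hsp90aa1 (0.39), all log2 fold changes, with adjusted p between 0.873 and 0.888. At 4 months they were Tmx3 (-0.25), Serpinh1 (0.16), Uggt1 (-0.48), Ppib (0.17), Sel1l (-0.17), Atf6 (-0.41), Sec62 (0.20), Cct3 (0.13) and Pax8 (0.25), with adjusted p between 0.307 and 0.719. Uggt1, the sensor that returns incompletely folded glycoproteins to Calr and Canx, had opposite signs at the 2 ages. At 4 months edgeR's adjusted p for Uggt1 was 0.307 in the main fit and 0.0233 without a filter on low counts. The unfiltered fit was the only 1 of 11 alternatives under 0.05, and it called 81 of all genes against 3 in the main fit.

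The genes whose log2 CPM was most like the mean standardized profile of the 10 genes were ranked by Pearson's r over the 8 samples, as a description without a test. The nearest were Bcat2 (0.989), Isyna1 (0.987), Rbm14 (0.986), Ssr2 (0.983), Tmed9 (0.983), Ostc (0.98), Epha7 (0.978), Yipf2 (0.976), Creld2 (0.974) and Ints3 (0.973). Among the 10 genes themselves, which enter that mean, r ran from 0.716 for Canx to 0.976 for Hspa5. Ssr2 is a subunit of the translocon-associated complex, Tmed9 a cargo receptor between ER and Golgi, and Ostc a subunit of the oligosaccharyltransferase. Of the 10 nearest genes only Ssr2 and Creld2 were in the lists above. The others, with Bcat2, Isyna1 and Rbm14 at the top, were in none of them. All points come from the same 8 libraries.

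Creld2, an ER protein whose promoter also held the exact ERSE, had the widest range of these, with 298 and 491 CPM in 1w0Gy, 354 and 738 in 1w4Gy, against 230 and 141 in 4m0Gy, followed by 166 and 202 in 4m4Gy. Like Hspa5 and Pdia4 it was highest in 1w4Gy sample 2 and lowest in 4m0Gy sample 2. Creld2 was picked for its likeness to the mean profile of the ER folding genes. These extremes and the direction of its age differences thus follow from that choice and are no separate evidence. The log2 fold changes of Creld2 with age were -1.09 in the sham rats (edgeR's adjusted p = 0.321) and -1.57 in the irradiated rats (adjusted p = 0.325). Neither passed, and those with irradiation were 0.47 at 1 week and -0.02 at 4 months.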

How the data were processed

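The authors prepared directional libraries (MGIEasy), sequenced them as paired ends of 100 bases (DNBSEQ-G400), mapped the reads with HISAT2 2.2.1 and counted them per transcript with featureCounts 2.0.0. The genome build is not given in the sources used here. The deposited table held raw counts, RPKM (not used) and TPM per transcript, and transcript lengths. Raw counts of the transcript with the highest total per gene, with all transcripts of a gene also summed as an alternative, were filtered by filterByExpr, scaled by TMM and tested with edgeR 4.0.16 (quasi-likelihood, robust prior, R 4.3.3). An adjusted p under 0.05 (Benjamini-Hochberg over all genes tested) was a call. SE is the log2 fold change divided by the square root of F. Each pair of groups was fitted on its own, and the interaction on 8 samples. DESeq2 1.42.0 (Wald test) was an alternative. The edgeR fit of 1w4Gy against 1w0Gy was also run on simulated counts. These were drawn at the spread typical of each expression level, and no result given here rests on them. TPM, as deposited, served for levels between genes, and likeness used log2 of CPM plus 0.5. The 10 genes and all lists were chosen with earlier results of these data known. Text names the 10 genes, Tg, called list genes (otherwise the smallest irradiation p per list), the 10 most similar genes and Tshr as a single thyrocyte marker. The result of 1 list gene is not reported here. Promoter sequences came from RefSeq (GRCr8). Precision at 14835406 to 18138106 counts per library is limited by 2 rats per group.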

Additional observations from a re-analysis of the deposited data

Results flagged for a closer look

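Of the genes named, 3 had both irradiated samples above both sham samples at 1 week and below both at 4 months. The same pattern was found in 758 of 15684 genes tested (4.83%), and the genes named were chosen in part by their smallest p for irradiation. For Uggt1 the response at 1 week minus that at 4 months was 0.96 on the log2 scale (SE 0.25, unadjusted p = 0.00516, edgeR's adjusted p = 0.416 over 8 samples). Its samples had 48.1 and 58.2 CPM in 1w0Gy, 62.0 and 86.6 in 1w4Gy, against 63.3 and 60.1 in 4m0Gy, followed by 39.8 and 49.0 in 4m4Gy. For Atf6, a sensor of the unfolded protein response, the difference was 0.80 (SE 0.22, adjusted p = 0.422), and for Tmx3, a membrane-bound disulfide isomerase, it was 0.39 (SE 0.13, adjusted p = 0.444). None of these differences passed the threshold with edgeR, and DESeq2 called Uggt1 alone of the 3. None of the 10 ER folding genes showed this pattern.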

How the results depend on the processing

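All fits rest on 2 rats per group, and a fit without 1 sample takes the lone sample to vary like the other group. Of 10 ER folding genes, none was called for irradiation in any alternative. The median log2 fold change of the 10 had the same sign in each alternative, except without single samples, where it ran from -0.08 to 0.17 for irradiation at 4 months, from -0.05 to 0.22 for the interaction and from -0.00 to 0.18 over both ages. The cause of the changes below was not tested.

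With DESeq2's Wald test the number of genes called was 23 for irradiation at 1 week, 11 at 4 months, 342 for age in sham rats, 302 for age in irradiated rats (3 of the 10 genes), 25 for the interaction and 10 for irradiation over both ages. Without a filter it was 5, 81, 507, 428 and 7 in the same order, up to the interaction. Without the robust prior, an alternative chosen after seeing the data, it was 0, 0, 69 for age in irradiated rats and 1 over both ages. Counts summed over transcripts gave 0 and 0 for irradiation, 27 for age in sham rats (0 of the 10 genes) and 44 for age in irradiated rats. The summed counts per 1000 Tg counts averaged 47.7 in 1w0Gy, 54.4 in 1w4Gy, 38.0 in 4m0Gy and 40.2 in 4m4Gy. The fit over all 8 samples called 1 gene for irradiation at 4 months and 0 of the 10 for age in sham rats. A fold limit (over 1.5 or under 0.5) left 89 genes for age in sham rats and 0 of the 10. At least 10 counts in every sample left 1 gene over both ages.

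With the replicate block 23 genes were called for irradiation at 1 week, 59 at 4 months, 13 for age in sham rats (0 of the 10; Dnajb9 adjusted p = 0.0957) and 730 for age in irradiated rats (4 of the 10: Hspa5, Hsp90b1, Pdia4 and Sdf2l1). The replicate numbers only name samples: deviations correlated with r = 0.151 between 1w0Gy and 1w4Gy, 0.123 between 4m0Gy and 4m4Gy, -0.236 between the sham groups and 0.096 between the irradiated groups. With crossed pairs in the sham rats, chosen after seeing the data, 340 genes and 4 of the 10 were called. Among other calls, Edem1 was lost in the fit over 8 samples, with summed counts and with the block, Serpinh1 in the sham rats with the block and in the irradiated rats with summed counts, and Qsox1 in the fit over 8 samples, with summed counts and without the robust prior. Without a filter Uggt1 was called at 4 months (adjusted p = 0.0233).

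Without single samples, 2 to 61 genes were called for irradiation at 1 week, 3 to 116 at 4 months, 12 to 746 for age in sham rats (0 to 1 of the 10), 28 to 1285 for age in irradiated rats (0 to 5 of the 10), 0 to 22 for the interaction and 1 to 5 over both ages. Of the age calls, Serpinh1 and Qsox1 were lost in irradiated rats without either 4m4Gy sample, and Edem1 without 1w0Gy sample 2 or 4m0Gy sample 1.

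Uncalled estimates that changed sign ran as follows without single samples. For irradiation at 1 week the ranges were -0.03 to 0.62 for Hspa5, -0.04 to 0.89 for Pdia4, -0.22 to 0.38 for Sdf2l1 and -0.01 to 0.14 for Tg. At 4 months they were -0.30 to 0.19 for Hspa5, -0.16 to 0.16 for Hsp90b1, -0.05 to 0.22 for Pdia3, -0.25 to 0.18 for Pdia4, -0.03 to 0.27 for Pdia6, -0.02 to 0.24 for Calr, -0.17 to 0.02 for Canx, -0.32 to 0.13 for Sdf2l1, -0.02 to 0.15 for Dnajb9 and -0.24 to 0.02 for Tg. For age in sham rats they were -0.17 to 0.09 for Pdia3, -0.26 to 0.00 for Calr and -0.02 to 0.12 for Canx, and in irradiated rats -0.15 to 0.10 for Tg. For the interaction they were -0.06 to 0.21 for Pdia3, -0.12 to 0.18 for Pdia6, -0.11 to 0.16 for Calr and -0.12 to 0.49 for Sdf2l1. Over both ages they were -0.05 to 0.27 for Hspa5, -0.04 to 0.37 for Pdia4, -0.01 to 0.09 for Canx, -0.15 to 0.11 for Sdf2l1, -0.03 to 0.04 for Xbp1 and -0.06 to 0.05 for Tg. In other alternatives the sign changed for Hsp90b1 at 4 months (0.00 with the replicate block and 0.01 with upper-quartile scaling), Tg with age in irradiated rats (0.04 with summed counts) and Xbp1 over both ages (-0.00 with DESeq2 and with summed counts).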
